A study of Trametes versicolor with 3 samples.

Results

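The manganese peroxidase gene models of the white-rot fungus Trametes versicolor were followed across 3 media. Members were the gene models whose deposited protein description contained both manganese and peroxidase, leaving out descriptions with repressed, lignin or ligninase, and 9 of 11480 gene models met this. They are named here by their protein number in the gene model set. Several wordings of description occurred among them, "manganese peroxidase isozyme precursor", "manganese-dependent peroxidase", "manganese peroxidase" and "manganese peroxidase isozyme MP2". A further gene model, Trave1_113105, is described with the spelling "manganase peroxidase". It falls outside the name rule for that reason and is given separately, with sums shown with and without it. Mycelium of strain CICC 14001 was taken at day 9, when the mycelial mat measured 4 cm, from PDA, commonly short for potato dextrose agar, from a medium with glucose as carbon source, or from a medium made with poplar. From each medium 1 RNA-seq library was made, from RNA enriched by its poly(A) tail. For every sample the labelled growth protocol names PDA at 25 °C, so the media were taken from the other labels.

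Manganese peroxidases are secreted heme enzymes of the class II peroxidase family of fungi, which also holds the lignin peroxidases and versatile peroxidases. With hydrogen peroxide as the oxidant they convert manganese(II) to manganese(III), which leaves the enzyme as a chelate with organic acids such as oxalate and oxidises phenolic parts of lignin. Versatile peroxidases combine this activity with that of lignin peroxidases. White-rot fungi usually carry several manganese peroxidase genes.

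Values given as on PDA, on glucose or on poplar are those of that library, and the libraries held 2.68 M (glucose), 2.80 M (poplar) and 2.85 M (PDA) uniquely assigned reads. Levels are RPKM, reads per kilobase of gene model and scaled to the library total, so 1 read on a gene model of 1 kb was worth 0.351 to 0.373 RPKM. Values in parentheses after a level or fold are the 95% exact interval from the read count, which covers counting error only. With 1 library per medium there is no replicate error and no test between media, and every difference describes these libraries. Calls of higher or lower needed RPKM plus 1 to differ by 2-fold or more.

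Of the members, 4 had their highest level on glucose. Among them Trave1_45167 had the largest fold between its highest and lowest library, at 9.82. That of Trave1_51721 was close, at 9.41, with a wide interval (3.37 to 36.4). Trave1_45167 had 31 reads on PDA, 286 on glucose and 41 on poplar. These are 10.01 RPKM (6.80 to 14.2), 98.3 RPKM (87.3 to 110.4) and 13.5 RPKM (9.68 to 18.3). Its glucose level thus stood apart, whereas the intervals of the PDA and poplar levels overlapped. It was 9.82-fold higher on glucose than on PDA (6.77 to 14.7) and 1.35-fold higher on poplar than on PDA, where the interval held 1 (0.824 to 2.22).

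Trave1_51645, described as isozyme MP2, showed the same order of media. It measured 23.0 RPKM on PDA, 122.4 RPKM on glucose and 27.3 RPKM on poplar, from 72, 360 and 84 reads. It was 5.32-fold higher on glucose than on PDA (4.12 to 6.95) and 4.48-fold lower on poplar than on glucose (3.52 to 5.75). Between the poplar and PDA libraries the ratio was 1.19 (0.857 to 1.65), an interval that held 1.

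The other members with their highest level on glucose were scarce. Trave1_29165 measured 4.45 RPKM on PDA, 11.8 RPKM on glucose and 5.82 RPKM on poplar, from 14, 35 and 18 reads. It was 2.66-fold higher on glucose than on PDA (1.40 to 5.35). On poplar it was 2.03-fold lower than on glucose (1.12 to 3.81), which on the scale of RPKM plus 1 missed the 2-fold call. Trave1_51721 measured 6.09 RPKM on PDA, 12.3 RPKM on glucose and 1.30 RPKM on poplar, from 19, 36 and 4 reads. It was 9.41-fold lower on poplar than on glucose, with a wide interval because of the 4 reads (3.37 to 36.4). Unlike the members above, it was also lower on poplar than on PDA, by 4.66-fold (1.55 to 18.9).

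Trave1_131350, described as manganese-dependent peroxidase, was the only member with its highest level on poplar. It had 321 reads on PDA, 193 on glucose and 753 on poplar. These are 103.7 RPKM (92.6 to 115.7), 66.4 RPKM (57.3 to 76.4) and 247.6 RPKM (230.3 to 265.98), and none of these intervals overlapped another. It was 3.73-fold higher on poplar than on glucose (3.18 to 4.39) and 2.39-fold higher than on PDA (2.09 to 2.73). On glucose it was 1.56-fold lower than on PDA (1.30 to 1.88), which is short of a 2-fold call. On poplar it lay above 93.7% of the listed gene models, the highest such position of a member in any library.

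The members Trave1_51725, Trave1_130766 and Trave1_51727 had their highest level on PDA and their lowest on glucose. Trave1_51725 measured 34.6 RPKM on PDA, 17.4 RPKM on glucose and 33.6 RPKM on poplar, from 108, 51 and 103 reads. Its levels in the PDA and poplar libraries could not be told apart by counting, with a ratio of 1.03 (0.779 to 1.36). On glucose it was 1.99-fold lower than on PDA (1.41 to 2.83). Trave1_130766 measured 20.3 RPKM on PDA, 10.3 RPKM on glucose and 20.1 RPKM on poplar, from 63, 30 and 61 reads, and was 1.97-fold lower on glucose than on PDA (1.26 to 3.16). Its PDA and poplar levels could not be told apart either, with a ratio of 1.01 (0.702 to 1.47). Trave1_51727 measured 35.2 RPKM on PDA, 21.5 RPKM on glucose and 24.99 RPKM on poplar, from 122, 70 and 85 reads. Its poplar level was closer to glucose, with a ratio of 1.16 (0.837 to 1.62), than to PDA, with a ratio of 1.41 (1.06 to 1.88). None of these members was called higher or lower in any comparison, and their reads covered less of the gene model than is usual for their number, as the coverage values show.

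Trave1_74449 had the fewest reads of the members on glucose and on poplar. It had 15 reads on PDA and 8 on glucose, or 4.90 RPKM (2.74 to 8.08) and 2.78 RPKM (1.201 to 5.48), and it had no read on poplar, where the 95% exact upper limit was 1.23 RPKM. On glucose it was 1.76-fold lower than on PDA, but this interval held 1 (0.701 to 4.80). By the exact 95% limit of the ratio it was at least 3.52-fold lower on poplar than on PDA and at least 1.78-fold lower than on glucose. Set against a floor of 3 reads in the poplar library, or 0.998 RPKM, the ratios were 4.91 and 2.79, which are not bounds.

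**Figure D1:**
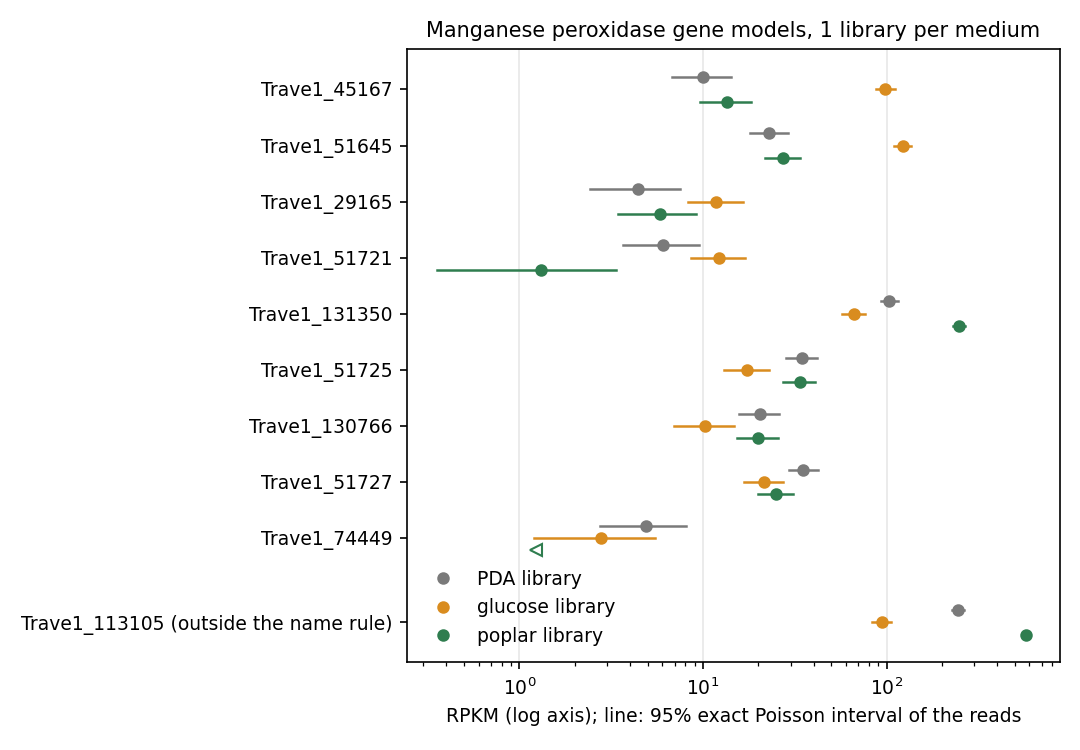
Level of each manganese peroxidase gene model in RPKM on a log axis in the PDA (grey), glucose (orange) and poplar (green) libraries, with the 95% exact Poisson interval of the reads as a line. The open triangle is the upper limit of Trave1_74449, which had 0 reads on poplar. Trave1_45167 and Trave1_51645 stand out on glucose at 98.3 and 122.4 RPKM, and Trave1_131350 on poplar at 247.6 RPKM.

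Trave1_113105, the gene model with the misspelt name, exceeded every member in the PDA and poplar libraries. It measured 245.4 RPKM (228.3 to 263.5) on PDA, 93.9 RPKM (83.2 to 105.8) on glucose and 576.9 RPKM (550.2 to 604.5) on poplar, from 762, 274 and 1759 reads. Its order of media was that of Trave1_131350, with poplar highest and glucose lowest. It was 6.14-fold higher on poplar than on glucose (5.40 to 6.9998), 2.35-fold higher on poplar than on PDA (2.16 to 2.56), and 2.61-fold lower on glucose than on PDA (2.27 to 3.01).

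Between the poplar and glucose libraries 1 of the 9 members was called higher and 4 were called lower on poplar. Over all 10636 measured gene models, 8.1% were called higher and 8.31% lower. The member called higher was Trave1_131350, and those called lower were Trave1_45167, Trave1_51645, Trave1_51721 and Trave1_74449. With a pseudocount of 5 the call of Trave1_74449 was lost (log2 ratio −0.64). The members' median log2 ratio of RPKM plus 1 was −0.91, with a range from −2.78 to 1.88, beside a median of 0.08 over all measured gene models. With Trave1_113105 counted the median was −0.35. A ratio of 1 lay outside the counting interval of 8 members, Trave1_51727 being the exception. For such intervals, here and in the comparisons below, the share over all measured gene models was not computed. These counts therefore describe the members only and cannot be set against a background.

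Between the poplar and PDA libraries 1 member, Trave1_131350, was called higher and 2, Trave1_51721 and Trave1_74449, were called lower on poplar. The background shares were 10.8% higher and 5.11% lower of 10506 gene models. The members' median log2 ratio was −0.02, or 0.11 with Trave1_113105 counted, beside 0.09 over all measured gene models, and for 4 of them a ratio of 1 lay outside the counting interval. Both members called lower had at most 4 reads on poplar, and both calls were lost with a pseudocount of 5, at log2 ratios of −0.81 and −0.99.

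Between the glucose and PDA libraries 3 members, Trave1_45167, Trave1_51645 and Trave1_29165, were called higher and 0 lower on glucose. The call of Trave1_29165 was lost with a pseudocount of 5, where its log2 ratio was 0.83. The background shares were 12.7% higher and 6.52% lower of 10487 gene models. The members' median log2 ratio was nevertheless negative, at −0.64, beside 0.01 over all measured gene models. There were 5 members whose interval excluded 1 without a call, namely Trave1_131350, Trave1_51725, Trave1_130766 and Trave1_51727 on the lower side and Trave1_51721 on the higher side. The comparisons share libraries in pairs, so their values are not independent of each other.

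**Figure D2:**
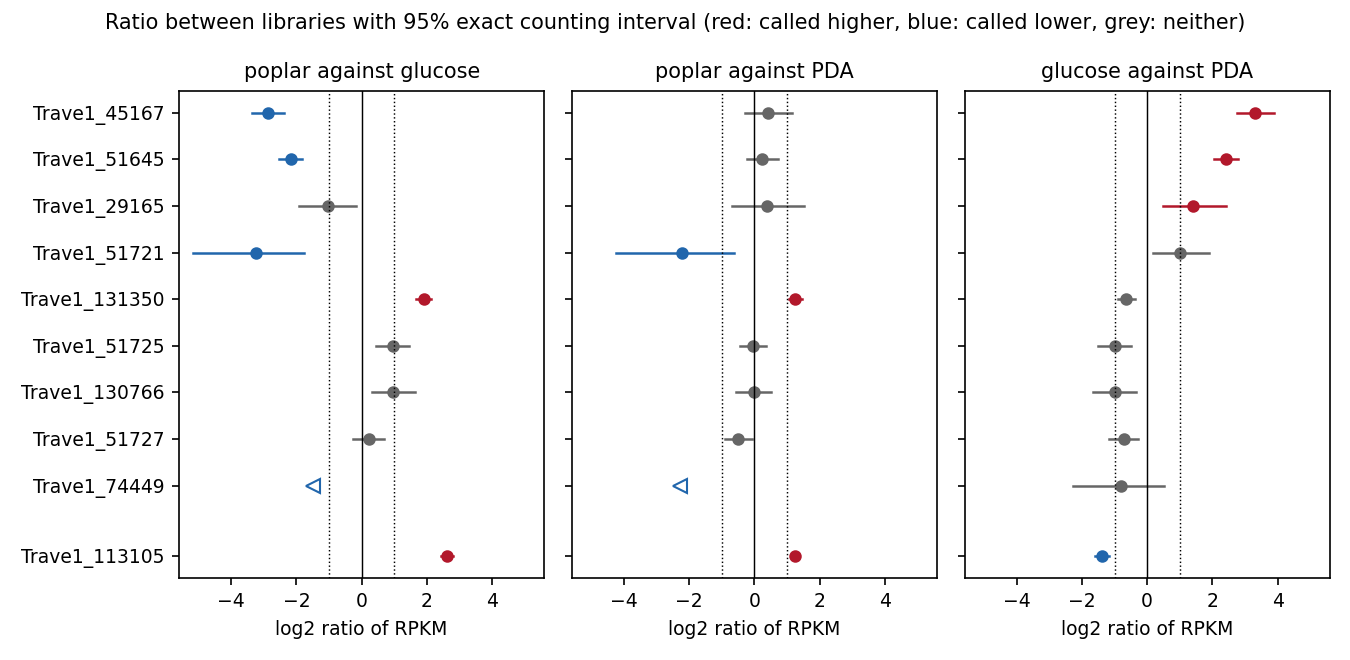
Log2 ratio of RPKM of each gene model between pairs of libraries, with the 95% exact counting interval as a line and dotted lines at 2-fold. Red marks a gene model called higher and blue one called lower on the scale of RPKM plus 1, and open triangles stand at the ratio against a floor of 3 reads. Trave1_131350 and Trave1_113105 lie to the right in both comparisons of the poplar library, and Trave1_45167 and Trave1_51645 lie to the left against glucose only.

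The summed level of the 9 members was 242.3 RPKM on PDA, 363.2 RPKM on glucose and 374.2 RPKM on poplar. In reads this was 268 per M assigned reads (249.6 to 288.03) on PDA, 399 (376 to 424) on glucose and 410.4 (387 to 435) on poplar, so the glucose and poplar sums were not distinguishable by counting. The sums were made up differently. On glucose Trave1_51645 held 33.7% of the summed RPKM, Trave1_45167 27.1% and Trave1_131350 18.3%. On poplar Trave1_131350 alone held 66.2%, followed by Trave1_51725 with 8.98% and Trave1_51645 with 7.30%. On PDA Trave1_131350 held 42.8%, Trave1_51727 14.5% and Trave1_51725 14.3%. The levels of Trave1_51727 and Trave1_51725 rest on reads that covered little of the gene model, as given below. Without Trave1_131350 the sums were 138.6 RPKM on PDA, 296.9 RPKM on glucose and 126.6 RPKM on poplar, so that glucose was highest. With Trave1_113105 added to the 9 they were 487.7, 457.2 and 951.1 RPKM, so that poplar was highest and glucose lowest.

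**Figure D3:**
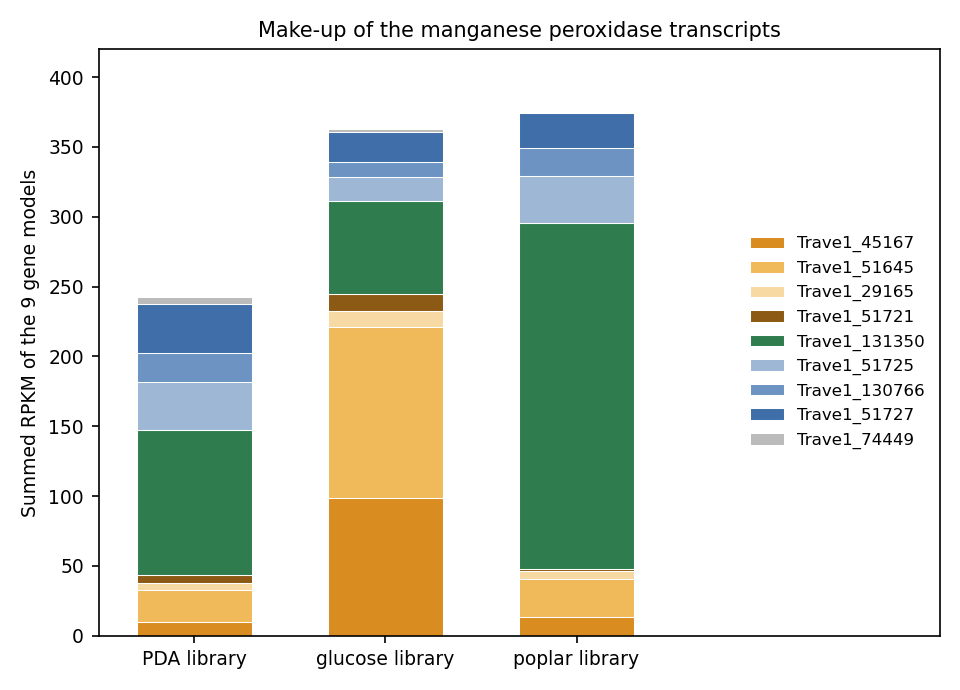
Summed RPKM of the 9 gene models in each library, stacked by gene model. The glucose and poplar bars reach 363.2 and 374.2 RPKM, but the poplar bar is mostly Trave1_131350 (green) and the glucose bar is mostly Trave1_45167 and Trave1_51645 (orange).

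Counting error left much of the order within a library unresolved. On PDA Trave1_131350 was 2.94-fold above the next member, Trave1_51727 (2.38 to 3.66), while Trave1_51727 and Trave1_51725 did not differ beyond counting error, nor did Trave1_51645 and Trave1_130766, nor any neighbours in the order among Trave1_45167, Trave1_51721, Trave1_74449 and Trave1_29165. On glucose the first 3 places, Trave1_51645, Trave1_45167 and Trave1_131350, were each separated from the next. The neighbours from Trave1_51727 down to Trave1_130766 were not separated there. On poplar Trave1_131350 was 7.37-fold above Trave1_51725 (5.99 to 9.15), and the neighbours from Trave1_51725 down to Trave1_45167 were not separated.

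Some levels, and the shares and ranks drawn from them, rest on reads that covered little of the gene model. Coverage as deposited by the authors, in percent of the gene model's length, was set beside that of other gene models of like read number and length (0.8 to 1.25 times each) in the same library. Trave1_51727 was covered over 26.4%, 21.7% and 21.5% of its 1215 bases in the PDA, glucose and poplar libraries, where gene models of like reads had medians of 87.1%, 77.8% and 82.5%. Trave1_51725 was covered over 53.9%, 44.1% and 53.2%, beside medians of 88.5%, 74.3% and 87.5%. Of the 26 coverage values of the members, 7 lay below the 5th percentile of like gene models, namely all those of Trave1_51727 and Trave1_51725 and that of Trave1_130766 on PDA. These are the members with their highest level on PDA and their lowest on glucose. In contrast, Trave1_45167 and Trave1_51645 were each covered over 99.4% on glucose, where gene models of like reads had medians of 94.5% and 94.2%. Trave1_131350 was covered over 87.0%, 83.1% and 88.95% on PDA, glucose and poplar, below the medians of 96.3%, 92.7% and 98.005% but above the 5th percentile in each library. Only uniquely assigned reads were counted, and the sequenced strain was not the strain named in the descriptions, FP-101664 SS1. The part of shared paralog sequence or strain differences in these values was not tested.

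**Figure D4:**
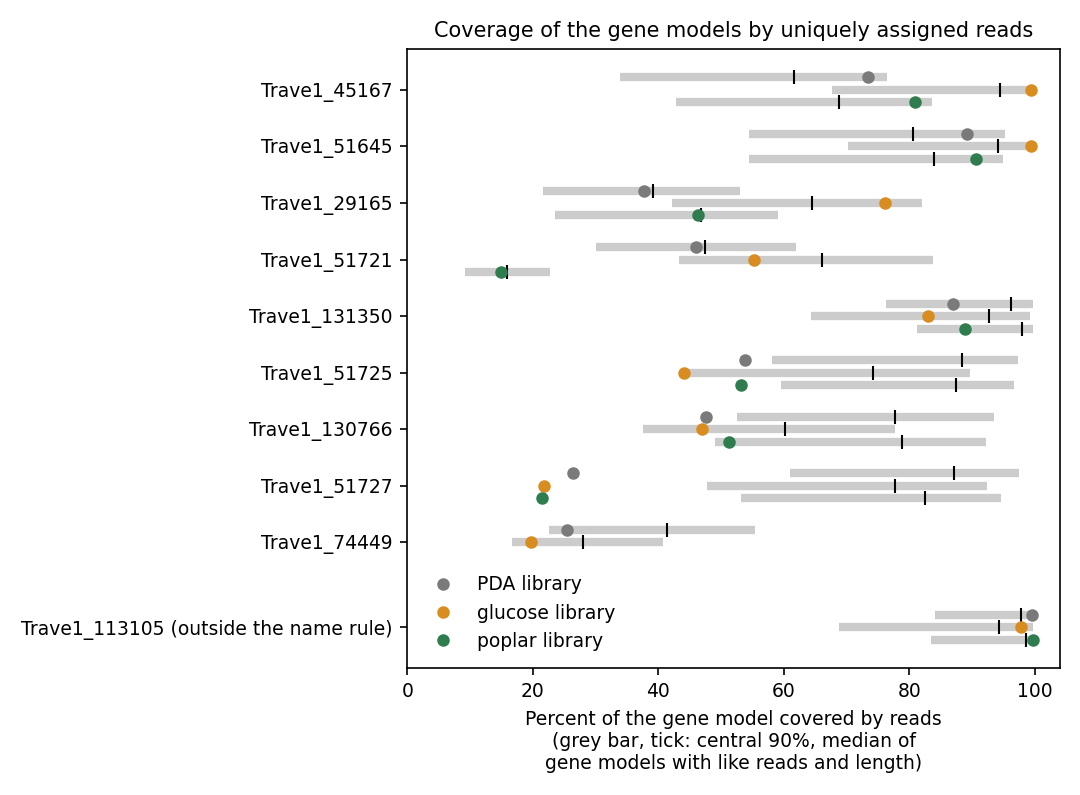
Percent of each gene model covered by uniquely assigned reads in the PDA (grey), glucose (orange) and poplar (green) libraries, with the median (tick) and central 90% (grey bar) of gene models of like reads and length in the same library. Trave1_51727 lies far to the left of its bars, at 21.5% to 26.4%, and Trave1_51725 at or left of the lower ends, at 44.1% to 53.9%.

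Position was shared by most members although the name rule did not use it. Of the 9, 7 lay within a run of 87 consecutive genes in the RefSeq gene table of Trametes versicolor v1.0, and the model names that carry a scaffold number (Trave1_131350, Trave1_130766 and Trave1_74449) all give scaffold 10. Gene models were placed in that table by the number in their name, a link checked on descriptions that name a locus tag. At one end Trave1_51721 and Trave1_130766 were direct neighbours, then came 2 other gene models, then Trave1_51725, Trave1_74449 and Trave1_51727 in direct succession, so that 5 members fell within 7 genes. Trave1_131350 was separated from Trave1_51721 by 25 genes of that RefSeq table, and Trave1_51645 stood at the other end, with 53 genes between it and Trave1_131350. Of the genes in the run, 10 were not listed in any library. Trave1_45167 and Trave1_29165 lay elsewhere, the latter with scaffold 6 in its model name.

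Members within the run did not share an order of media. It held Trave1_51645, highest on glucose, Trave1_131350, highest on poplar, and the members with their highest level on PDA. Counting error did not separate the PDA and poplar levels of Trave1_51725 and Trave1_130766, nor the PDA and glucose levels of Trave1_74449. The direct neighbours Trave1_51721 and Trave1_130766 had unlike orders of media, with log2 ratios of RPKM plus 1 between poplar and glucose of −2.53 and 0.90. In contrast, Trave1_130766 and Trave1_51725, with 2 gene models between them, had the closest patterns of any members, at a distance of 0.03 in log2 units over the 3 libraries after subtracting each gene's mean. Both had coverage below the 5th percentile of like gene models, Trave1_51725 in all 3 libraries and Trave1_130766 on PDA. Whether this bears on their likeness was not tested. Of the 80 other genes in the run, 66 were measured between poplar and glucose, and 8 of these were called higher and 4 lower on poplar, beside the 8.1% and 8.31% of all measured gene models.

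**Figure D5:**
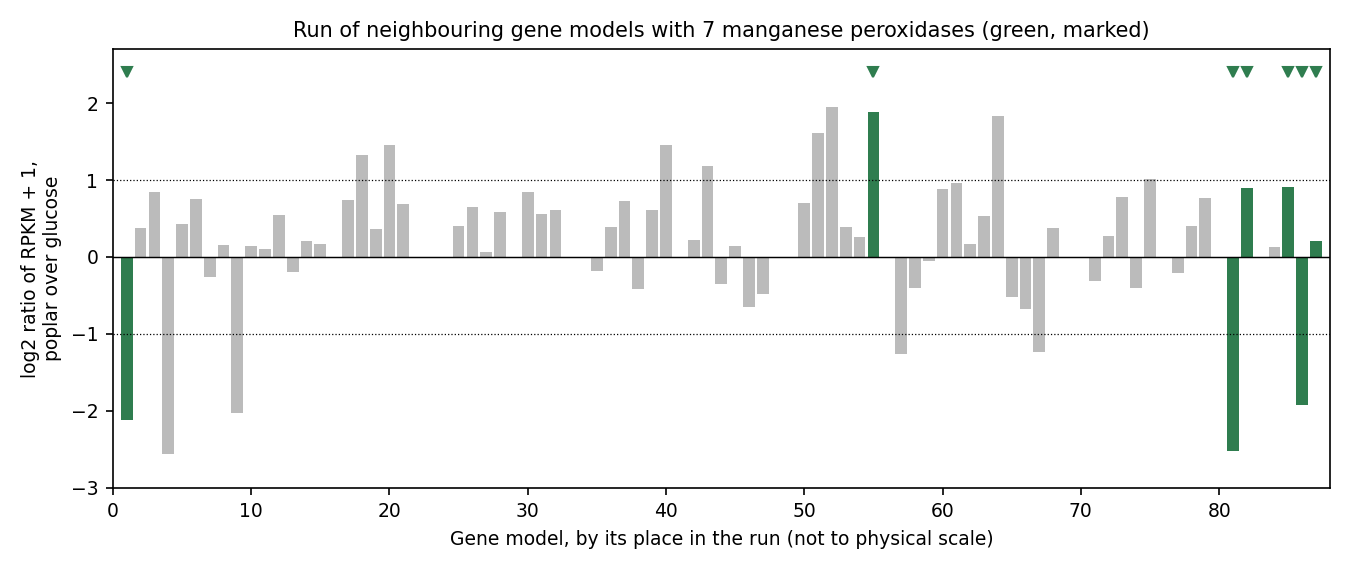
Log2 ratio of RPKM plus 1 between the poplar and glucose libraries along the run of 87 consecutive RefSeq genes, in gene order and not to physical scale. Members are green and marked by triangles, other gene models are grey, and dotted lines mark 2-fold. The 7 members point in both directions, from −2.53 for Trave1_51721 to 1.88 for Trave1_131350.

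Trave1_113105 lay outside this run, with scaffold 2 in its model name, among lignin peroxidases. Its direct neighbour was ligninase C, Trave1_115214, and the lignin peroxidases Trave1_43848 and Trave1_43846 were the third and the fifth gene models on the same side. These neighbours did not share an order of media. Trave1_115214 measured 110.96, 552.6 and 1965 RPKM on PDA, glucose and poplar and was lowest on PDA, unlike Trave1_113105. Trave1_43848 measured 276.7, 41.3 and 218.7 RPKM and was highest on PDA and lowest on glucose. Trave1_43846 measured 5.40, 3.72 and 82.2 RPKM, from 17, 11 and 254 reads, with poplar highest, as for Trave1_113105. The order of its PDA and glucose levels, which rest on few reads, was not tested.

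Gene models with the pattern most like a member over the 3 libraries were sought among 7304 with at least 10 RPKM in some library. Nearest to Trave1_45167 was the hypothetical protein Trave1_22792, at a distance of 0.02, with 0.489, 12.5 and 0.996 RPKM in the PDA, glucose and poplar libraries, followed by Trave1_122700 and Trave1_48211. Nearest to Trave1_51645 was Trave1_31022, described as a dehydrogenase, at a distance of 0.02 and with 5.34, 32.0 and 6.42 RPKM, followed by Trave1_167518 and Trave1_74633. Nearest to Trave1_131350 was the hypothetical protein Trave1_133100, at a distance of 0.14, followed by Trave1_136699 and Trave1_54694. Distances are on RPKM plus 1, which understates the change of low gene models, so the plain RPKM ratios of Trave1_22792 were wider than those of Trave1_45167. A likeness over 3 libraries is a description only.

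Other genes of the ligninolytic system were set beside the members by lists of description words, and their counts on poplar against glucose are to be read beside the 8.1% higher and 8.31% lower of all measured gene models. Of the 11 lignin peroxidases, which oxidise non-phenolic lignin, 8 were called higher and 0 lower on poplar against glucose, with a median log2 ratio of 1.83. The manganese peroxidases had −0.91, or −0.35 with Trave1_113105. The lignin peroxidases with the largest ratios were Trave1_134496, with 10.98, 11.3 and 298.6 RPKM on PDA, glucose and poplar, and Trave1_43846, given above. The list of manganese-repressed, versatile and unclassified peroxidases had 3 measured genes, of which 1 was higher and 2 lower. The higher one, Trave1_43747, described only as peroxidase, measured 128.4, 3.74 and 197.8 RPKM on PDA, glucose and poplar and was 52.9-fold higher on poplar than on glucose (29.3 to 106.5). Its order of media was that of Trave1_131350. The manganese-repressed peroxidase Trave1_26509 measured 145.7, 367.3 and 38.2 RPKM in the PDA, glucose and poplar libraries, so glucose was highest, as for Trave1_45167, but poplar was lowest, as for Trave1_51721. The versatile peroxidase Trave1_74865 was scarce, at 3.87, 10.97 and 1.97 RPKM. This gene, Trave1_43848 and Trave1_115214 were picked with their values already seen. Of the 5 laccases, copper enzymes that oxidise phenols, 0 were higher and 1 lower. The latter was laccase I, Trave1_68293, with 4.95, 37.1 and 7.56 RPKM on PDA, glucose and poplar, the order of media of Trave1_45167.

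Partners of the manganese peroxidase reaction were taken next, beginning with the supply of its oxidant. The oxidase list took descriptions naming glyoxal, copper radical, alcohol or pyranose oxidases or a GMC oxidoreductase. Whether the product of each gene releases hydrogen peroxide was not tested. Of the 26 measured genes of this list, 4 were called higher and 2 lower on poplar against glucose, with a median log2 ratio of 0.02. The GMC oxidoreductase Trave1_163334 measured 5.43, 7.43 and 52.3 RPKM on PDA, glucose and poplar, while Trave1_176418, described as aryl-alcohol oxidase-like, measured 10.2, 35.8 and 10.8 RPKM. Poplar was highest for the former and glucose for the latter, as for Trave1_131350 and Trave1_45167. Of 9 genes of oxalate and formate metabolism, 0 were higher and 3 lower (median log2 ratio −0.53). The oxalate decarboxylase Trave1_60985, of an enzyme family that breaks oxalate down, measured 14.1, 51.6 and 7.05 RPKM in the PDA, glucose and poplar libraries and was 7.32-fold lower on poplar than on glucose (4.87 to 11.4). The bicupin oxalate decarboxylase/oxidase Trave1_128779 was 3.24-fold lower (2.69 to 3.92). Both had their highest level on glucose, as Trave1_45167 did.

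Of the 4 metal transport genes, 1 was higher and 0 lower on poplar against glucose, and all 4 log2 ratios were positive, from 0.34 to 1.31. The ZIP zinc/iron transporter Trave1_72289 was 2.56-fold higher (1.86 to 3.55). Against PDA the Nramp-domain gene Trave1_139748, of a family that carries divalent metals including manganese, was 2.22-fold higher (1.72 to 2.89) on poplar. Of the 8 heme synthesis genes, which supply the cofactor of these enzymes, 0 were called higher and 0 lower in any comparison of libraries. Of the 18 antioxidant defence genes, 0 were higher and 1, the thioredoxin Trave1_33016, was lower on poplar against glucose, by 2.15-fold (1.84 to 2.53).

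Against PDA the counts of the other genes are to be read beside 10.8% higher and 5.11% lower of all measured gene models on poplar, and 12.7% and 6.52% on glucose. On poplar 10 of the 11 lignin peroxidases were called higher and 0 lower, and 10 of the 26 genes of the oxidase list higher and 1 lower. Of the 9 oxalate and formate genes 2 were higher and 1 lower, and of the 5 laccases 1 was higher and 0 lower. These counts stand beside 1 higher and 2 lower of the 9 manganese peroxidases. On glucose 6 lignin peroxidases were higher and 1 lower, and 10 genes of the oxidase list higher and 2 lower. Of the 8 measured oxalate and formate genes 3 were higher and 1 lower, and 2 laccases were higher and 0 lower. The manganese peroxidases had 3 higher and 0 lower. The glyoxal oxidase Trave1_118536, which releases hydrogen peroxide, measured 27.1, 158.02 and 160.9 RPKM on PDA, glucose and poplar, so it was lowest on PDA with nearly equal levels elsewhere. Pyranose 2-oxidase, Trave1_174991, which oxidises sugars and releases hydrogen peroxide, went the other way, with 7639, 992.1 and 2316 RPKM and a level 7.70-fold lower on glucose than on PDA (7.48 to 7.93). The summed RPKM of the oxidase list was highest on PDA, at 8865 against 3827 on glucose and 7486 on poplar. Trave1_174991 alone made up 7639 RPKM of the PDA sum, and the rest of the list summed lowest on PDA. More genes of the list were called higher than lower on glucose and on poplar against PDA. The formate dehydrogenase Trave1_56661, which oxidises the formate left by oxalate breakdown, measured 348.1, 1943 and 1284 RPKM. The oxalate decarboxylase Trave1_126128 measured 6.89, 8.75 and 16.2 RPKM, with poplar highest, unlike Trave1_60985. Among the lignin peroxidases Trave1_134188 measured 3.84, 84.9 and 190.5 RPKM and Trave1_133596 1.28, 18.8 and 15.7 RPKM, both lowest on PDA. Laccase 5, Trave1_146502, measured 11.8, 25.1 and 24.9 RPKM and was also lowest on PDA. The catalase Trave1_152668, which breaks hydrogen peroxide down, measured 1385, 3680 and 3710 RPKM. Of the antioxidant genes 1 was called higher and 0 lower on poplar, and 3 higher and 1 lower on glucose. No difference between lists was tested.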

How the data were processed

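The authors deposited 1 table per library, listing gene models with at least 1 read. Counts were deposited as uniquely assigned reads, per the file headers, and sum to the totals given there. The deposited RPKM values equal reads per kilobase scaled to that sum, as checked by recomputing them. The deposited coverage is a percent of the gene model. Per the submitters' processing notes, Cufflinks 2.0.1 was used, with no role given. For the aligner, build, annotation and strand setting, a value was not given in the sources used here. Lengths were read as coding length, since 99.3% were multiples of 3, and a gene model missing from a table was given 0 reads.

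The members, the 8 gene lists and the alternatives were chosen with earlier results of these data known. Every member is named. At most 2 genes per list and comparison were named, those with the largest log2 ratio of at least 2-fold with 10 RPKM or more in the higher library, and for likeness the 3 nearest gene models. A gene model was measured at 1 RPKM or more in either library. The log2 ratios used RPKM plus a pseudocount of 1. Folds are plain RPKM ratios with exact conditional (Clopper-Pearson) intervals, and levels carry exact Poisson intervals, both at 95% and computed with SciPy 1.17.1. Lacking molecular identifiers, reads are not independent molecules, so intervals cover counting error only. The calling procedure was run on data simulated with counting error only, with 4-fold changes set in gene models with many reads. That simulation held no variation between replicates and set no change in scarce gene models, so it does not check the calls on either point. TMM factors came from edgeR 4.0.16. RefSeq order was found by an offset of 270 between protein number and locus tag. This offset held for 6710 of 6745 descriptions that name a tag. It matched 11440 of 11480 gene models and all 9 members, each of which lay between the nearest descriptions that name a tag. No gene description named a plant gene (0 matches for Populus, chlorophyll, rubisco or photosystem).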

Additional observations from a re-analysis of the deposited data

How the results depend on the processing

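No paired analysis was possible because each medium had 1 library, and for the same reason no replicate could be left out. Median-of-ratios and TMM scaling moved the median of all genes by at most 0.09 in log2 units in size. Under both, every count of members called was unchanged, and every sum and 54 of 54 member levels stayed within their counting interval. The order of the glucose and poplar sums did change. Glucose was then above poplar, at 369.4 against 358.0 RPKM with median-of-ratios scaling and 370.0 against 358.6 RPKM with TMM. Of 108 member ratios recomputed under both scalings and pseudocounts of 0.1 and 5, 102 kept their direction and call, 4 lost and 2 gained a 2-fold call, and 0 changed direction. The 4 lost calls all came with a pseudocount of 5, those of Trave1_74449 against glucose (log2 ratio −0.64) and PDA (−0.99), Trave1_51721 against PDA (−0.81), all on poplar, and Trave1_29165 on glucose against PDA (0.83). Members lower in poplar against PDA went from 2 to 0 with a pseudocount of 5 or a minimum of 10 RPKM, both having few reads. At a threshold of 1.5-fold the members higher in poplar against glucose came to 3, and those lower in glucose against PDA to 5. At 4-fold the members higher in poplar were 0 against glucose and 0 against PDA, and those lower against PDA were 1. The shares of all gene models called at these changed settings were not computed, so these counts describe the members only. Counting also the spelling manganase, chosen after seeing the data, 2 were higher in poplar against glucose, 2 higher against PDA and 1 lower in glucose against PDA, and the sums became 487.7 (PDA), 457.2 (glucose) and 951.1 RPKM (poplar). Without Trave1_131350 the sums were 138.6, 296.9 and 126.6 RPKM. Descriptions naming lignin added no member. Depth limits Trave1_74449, Trave1_29165 and Trave1_51721, which had at most 36 reads in any library.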

Other observations

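Other gene models of the run that holds 7 manganese peroxidases are given here as values, chosen after their values were seen. The glycoside hydrolase family 25 gene Trave1_51651, between Trave1_51645 and Trave1_131350, measured 101.4 RPKM on PDA, 377.6 RPKM on glucose and 92.1 RPKM on poplar, so that glucose was highest, as for Trave1_51645. The tannase-type genes Trave1_51660, Trave1_74413 and Trave1_132016 had their highest level on PDA, at 16.1, 16.1 and 10.4 RPKM. Their lowest was on glucose, at 2.86, 1.34 and 0.945 RPKM. A further tannase-domain gene of the run, Trave1_51683, was scarce, at 1.89, 0.753 and 1.68 RPKM on PDA, glucose and poplar, with PDA and poplar nearly equal. Tannases and feruloyl esterases cleave ester bonds of plant phenolics. The cytochrome P450 gene Trave1_173304 measured 129.2, 45.8 and 166.2 RPKM on PDA, glucose and poplar, with the order of media of Trave1_131350. Trave1_131114 had this order too, at 46.7, 29.2 and 67.7 RPKM. The other genes of the run described as cytochrome P450 had other orders. Among these, Trave1_51707 measured 47.5, 42.5 and 26.1 RPKM and Trave1_31356 51.4, 56.4 and 48.7 RPKM. No explanation was tested for any of these values.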
